A study of Homo sapiens with 74 samples.

Results

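Cut&Run peaks of V5-tagged zinc-finger proteins (ZFPs) were examined on the unplaced and unlocalized contigs of the human genome build hg38, chosen by the name of the sequence: the "random" contigs are tied to a chromosome but not placed on it, and the chrUn contigs are tied to none. Of 92122 peaks in 72 lists, 4956 (5.38%) lay on such contigs, which make up 0.372% of the bases of known sequence in the build. They fell on 67 of 169 contigs, of which 30 were random and 37 chrUn contigs. The comparison below is with the 86847 peaks on the assembled chromosomes, and 319 peaks on mitochondrial DNA were left out of it.

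All libraries came from HEK293T, an established line derived from human embryonic kidney, transfected with a plasmid that encodes a ZFP with V5 at its C terminus under the EF1-alpha promoter, so that the protein was overproduced from a transgene. Cells were harvested after 48 h, without crosslinking, and DNA cut free around the V5 antibody was sequenced. Each of 36 ZFPs had 2 biological replicates, each from its own well. Every list gives peaks against untransfected cells treated with the same antibody (mock IP), of which no list was used. Per the study's methods the mock IP came from the same batch as the library. The labels do not name the batches, so differences between ZFPs cannot be told apart from differences between batches. The ZFPs were APEX2, BRCA1, CISD1, CNBP, CNOT4, CPSF4, CPSF4L, CTCF, G2E3, GIN1, GTF3C4, LIN28B, MAZ, MBNL1, NANOS2, PHF7, RBM5, RNF113A, RNF14, SALL4, SNRPC, TEX13A, TRIM55, the libraries labelled U2AF1, WBP4, ZC3H3, ZFP36L1, ZMAT3, ZMAT5, ZNF2, ZNF22, ZNF317, ZNF574, ZNF593, ZNF706 and ZNF800. List lengths ran from 15 to 8702 peaks with a median of 631, and the sources used here do not give the read totals behind them. CPSF4, MBNL1, SNRPC, TRIM55, ZC3H3 and ZMAT5 have no Cut&Run target genes in the summary table of the study.

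Some libraries stood apart from their labels. Peaks on exons of the ZFP's own gene, which the plasmid's cDNA also carries, were found in 66 of 72 lists. They were missing in both lists labelled U2AF1, both labelled ZMAT5, replicate 1 of MBNL1 and replicate 2 of TRIM55. The fold at EEF1A1, the gene whose promoter drives the plasmid, was lowest in the library labelled TRIM55 replicate 2 (6.98), the library labelled ZMAT5 replicate 2 (9.97), ZC3H3 replicate 2 (35.83) and the library labelled MBNL1 replicate 1 (53.33), against 129.5 to 7903 in the other lists. ZC3H3 replicate 2 counts among the 66, but with a fold of 3.99 on its own exons against 3029 in replicate 1. Each comparison between kinds of peaks kept its direction and its call without the libraries labelled U2AF1, without MBNL1 and TRIM55, and without TRIM55, ZC3H3 and ZMAT5, and the ribosomal DNA folds are given with and without the 4 lists just named.

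Contigs of this kind hold sequence that could not be placed, often because it is repeated many times in the genome. Such repeats include satellite DNA, long tandem arrays found mostly around centromeres and on the short arms of acrocentric chromosomes, and the ribosomal DNA of the nucleolar organizers, whose 45S transcript is cut into the 18S, 5.8S and 28S RNAs of the ribosome. Reads from any copy of such a repeat in the cell align to the few copies in the build, so that a peak there stands for a family of copies rather than for a single place. By their sequence, the 169 contigs were sorted into 2 with ribosomal DNA, 9 rich in the pentamer ATTCC or its reverse complement GGAAT (satellites II and III are built of such pentamers), 98 whose windows repeat at about the unit length of alpha satellite, the main satellite of centromeres (the alpha-length class), 27 with copies of annotated genes and 33 others. Of the known bases of the contigs, those with gene copies held 47.6%, the others 23.6% and the alpha-length class 15.7%. The pentamer contigs held 9.9% and ribosomal DNA 3.11%. The alpha-length class also took in contigs such as chrUn_KI270467v1, whose best repeat distance was 42 bp, because 168 bp is 4 times that.

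The following windows show what the peaks lay on. The first is centred on the bases called for the most ZFPs on any contig (chrUn_GL000216v2:5747-5897), the second on the same point of chrUn_KI270442v1 (chrUn_KI270442v1:92287-92437), both hg38, plus strand, with ATTCC and GGAAT in capitals.
chrUn_GL000216v2: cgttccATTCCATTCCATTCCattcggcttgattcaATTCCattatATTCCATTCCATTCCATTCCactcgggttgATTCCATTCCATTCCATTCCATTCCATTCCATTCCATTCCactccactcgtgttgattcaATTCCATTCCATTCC
chrUn_KI270442v1: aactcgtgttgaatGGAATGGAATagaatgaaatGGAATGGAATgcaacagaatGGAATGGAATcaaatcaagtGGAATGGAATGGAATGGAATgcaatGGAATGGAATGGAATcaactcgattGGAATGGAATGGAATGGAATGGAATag
The windows hold 19 and 18 pentamers. Runs of pentamers follow each other directly, as ATTCC in the first window and as GGAAT in the second.

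The next pair are tandem repeats not built of the pentamer, of which the first window holds 1 and the second 0. The window of chr14_GL000225v1_random (chr14_GL000225v1_random:110383-110522, plus strand) has in capitals each stretch of 8 or more bases that occurs more than once in it. The window of chrUn_KI270467v1 (chrUn_KI270467v1:888-1013, plus strand) has in capitals each base that equals the base 42 bp downstream, which was so for 66.7% of its bases.
chr14_GL000225v1_random: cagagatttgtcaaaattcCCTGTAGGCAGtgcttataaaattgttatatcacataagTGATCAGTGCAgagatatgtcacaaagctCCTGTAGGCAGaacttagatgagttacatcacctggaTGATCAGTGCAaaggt
chrUn_KI270467v1: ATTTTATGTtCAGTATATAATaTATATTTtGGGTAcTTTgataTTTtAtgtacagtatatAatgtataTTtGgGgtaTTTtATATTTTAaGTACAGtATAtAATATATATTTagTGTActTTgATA
Over the whole of chr14_GL000225v1_random the best repeat distance was 68 bp, at which 36.3% of bases matched, against a median of 26.1% over all distances from 20 to 400 bp. It therefore met neither satellite rule and stayed among the others.

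The last pair are RNA genes whose ends met the ends of peaks. The first is a peak of the library labelled MBNL1 replicate 1 on chr22_KI270733v1_random (chr22_KI270733v1_random:128870-129048, plus strand), with the mature 5.8S rRNA (RNA5-8SN4 of RefSeq) in capitals. The second is the most common peak on chr1_KI270713v1_random (chr1_KI270713v1_random:21861-22035, minus strand), with the whole transcript of RNU1-1, a gene of the U1 small nuclear RNA, in capitals.
5.8S: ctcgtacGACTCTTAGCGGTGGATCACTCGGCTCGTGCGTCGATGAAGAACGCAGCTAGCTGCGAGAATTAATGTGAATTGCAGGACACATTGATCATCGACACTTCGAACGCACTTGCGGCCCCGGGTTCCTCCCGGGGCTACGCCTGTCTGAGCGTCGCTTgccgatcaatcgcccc
U1 copy: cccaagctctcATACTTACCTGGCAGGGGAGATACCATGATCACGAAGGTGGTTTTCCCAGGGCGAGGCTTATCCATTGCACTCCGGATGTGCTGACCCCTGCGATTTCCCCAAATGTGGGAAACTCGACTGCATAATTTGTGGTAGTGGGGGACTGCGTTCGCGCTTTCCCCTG

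The share of peaks on contigs ran from 0.969% to 19.1% over ZFPs, while their number ran from 30 to 309. A list held between 0 and 166 contig peaks (median 63.5, quartiles 43 and 86). As a share of the list they made up 0% to 20.1%, with a median of 12.6%. The plot of shares by list length shows shares of 10% to 20% in 44 of 48 lists shorter than 1000 peaks and of at most 5.63% in lists longer than 1300.

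**Figure D1:**
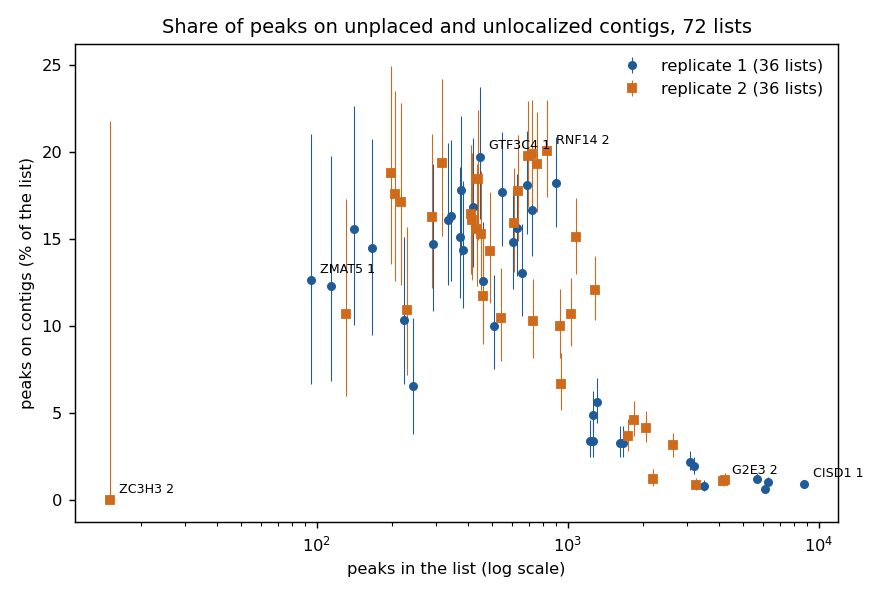
Share of each list's peaks that lie on contigs (vertical axis, percent) against the number of peaks in the list (horizontal axis, log scale), for 72 lists coloured by replicate; bars are exact 95% binomial intervals. The highest share is that of RNF14 replicate 2 (20.1%), and the longest list, CISD1 replicate 1, lies near 1%.

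The ZFPs with the highest shares were GTF3C4, a subunit of the RNA polymerase III factor TFIIIC, with 169 of 885 peaks (19.1%, exact 95% interval 16.6 to 21.8), ZNF706 with 240 of 1267 (18.9%, 16.8 to 21.2) and ZNF800 with 262 of 1384 (18.9%, 16.9 to 21.1). Their replicates lay close together: 19.7% and 18.4% for GTF3C4, 17.7% and 19.9% for ZNF706, 18.1% and 19.7% for ZNF800. The next shares, of ZNF574 (18.7%) and RNF14 (18.5%), lay within the intervals of all of them. The lowest shares were those of G2E3, a ubiquitin ligase, with 74 of 7641 peaks (0.969%, 0.761 to 1.21), APEX2, a DNA repair nuclease, with 121 of 9910 (1.22%, 1.01 to 1.46) and TRIM55, a muscle ubiquitin ligase, with 43 of 3358 (1.28%, 0.928 to 1.72). The value of TRIM55 joined 12.3% in replicate 1 (14 of 114 peaks) with 0.894% in replicate 2 (29 of 3244). ZC3H3 replicate 2 had 0 of 15 peaks on contigs, which allows a share of up to 20%. In 12 of 36 ZFPs the intervals of the 2 lists did not overlap.

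Across the 36 ZFPs, the share on contigs fell with the number of peaks (Spearman rho = -0.70, Pearson r = -0.76 on log10 of the number). The permutation p-values, adjusted over 2 correlations, were 3e-05 and 1e-05, and without APEX2 and CISD1, the ZFPs farthest from the median length, the values were rho = -0.65 and r = -0.73. The number of peaks is also the denominator of the share. No ZFP lay between 8.02% (CPSF4L) and 12.2% (the libraries labelled U2AF1), so each side of that gap was also taken alone. Among the 16 ZFPs below it rho was -0.82 and r was -0.84 (permutation p adjusted over 4 tests 0.00056 and 6e-05), and among the 20 above it rho was 0.19 and r was 0.18 (0.43 and 0.44). The gap was chosen on the share itself after it was seen. Cutting the range of the share changes its correlations, so no conclusion is drawn from the contrast between the sides. In a list kept only to peaks found in both replicates, the relation over all 36 ZFPs did not pass the test (rho = -0.09, r = 0.20, permutation adjusted p = 0.60 and 0.24), and with a q threshold of 0.001 rho was -0.42 (permutation adjusted p = 0.011). TRIM55, ZC3H3 and ZMAT5 kept 0% of their contig peaks and 0.0891% to 0.322% of their chromosome peaks in the first of these. Their weight in that result was not tested.

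The share on contigs also went with the share of chromosome peaks on pentamer satellite. A peak was called satellite-like when at least 5 ATTCC or GGAAT pentamers lay within 100 bp of its summit, a condition met by 0.112% of all 201-bp windows of the chromosomes and by 8.95% of those of the contigs. Spearman rho was 0.86 and Pearson r was 0.89 (n = 36, permutation p adjusted over 2 correlations 2e-05 and 1e-05). Without ZNF317 and ZNF800, the ZFPs farthest from the median, they were 0.88 and 0.90. Below the gap in shares rho was 0.84 and r was 0.79 (permutation p adjusted over 4 tests 0.00052 and 6e-05), above it 0.34 and 0.38 (0.19 and 0.13). The sides were again cut on the share itself, so no conclusion is drawn from their contrast. The denominators are all peaks outside mitochondrial DNA for the first share and chromosome peaks alone for the second. Both thus rest on chromosome peaks of the same lists. With only peaks found in both replicates rho was 0.35 and did not pass, while r was 0.50 and did (permutation adjusted p = 0.072 and 0.0038). These values include TRIM55, ZC3H3 and ZMAT5, which kept no contig peak and few chromosome peaks.

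Per Mb of known sequence, contigs held more peaks than the chromosomes in 36 of 36 ZFPs. The mean log2 ratio was 4.51 ± 1.52 (SD, n = 36 ZFPs), by a sign-flip permutation test over ZFPs adjusted over 10 paired comparisons (p = 1.67e-05, the smallest that 100000 resamples and this adjustment gave). The labels give 2 mock IP samples for all lists, without the batch of each, so ZFPs share controls. The tests over ZFPs here and below treat the ZFPs as independent. How far the mock IP itself differs between contigs and chromosomes was not tested. How many copies of each repeat the cells carry was not measured, so the ratio is per base of the build, not per base of the genome. A merged region chains all overlapping peaks of all lists, so the ZFPs counted for a long region need not share a base, and regions were not matched for length. Of 469 merged contig regions 73 (15.6%) were called for at least 10 ZFPs. Over the whole series this held for 2.11% of 36731 merged regions, and over the chromosomes alone for 1.94%. The share was 22.9% of 48 regions on ribosomal DNA, 21.01% of 138 on pentamer satellite, 18% of 50 on the alpha-length class, 11.8% of 153 on other contigs and 7.5% of 80 on gene contigs.

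Contig peaks were found again in the other replicate more often than chromosome peaks. Overlap by at least 1 bp was seen for 24.3% of all chromosome peaks. Averaged over ZFPs, it was 54.9% on contigs and 32.9% on chromosomes, a difference of 22.1 ± 19.2 percentage points (SD, n = 36; higher in 32 of 36 ZFPs, permutation adjusted p = 1.67e-05). The difference was widest in ZMAT3, an RNA-binding target of p53, with 78.8% on contigs and 19.01% on chromosomes, in CPSF4, a subunit of the RNA 3′ end cleavage complex, with 74.1% and 18.6%, and in PHF7 with 60.7% and 8.26%. The lists of these ZFPs differed in length: 1228 and 545 peaks for ZMAT3, 1610 and 945 for CPSF4, 6284 and 729 for PHF7. Their contig peaks were more even, at 42 and 57, 53 and 63, and 65 and 75. A shorter partner list limits the percent of peaks that can overlap, and the part of list length in the difference was not tested. Contig peaks were also denser per Mb and wider on average, so more of them can overlap by position alone. That part was not tested either. GTF3C4 had 57.99% and 61.03%, the other way round. TRIM55, ZC3H3 and ZMAT5 had 0% on contigs and 0.0891% to 0.322% on chromosomes, from pairs of lists of unlike length (114 and 3244 peaks, 1315 and 15, 95 and 2191), and for ZC3H3 no overlap was possible because replicate 2 had no contig peak. The mean difference was 12.5 points when at least 50% of both peaks had to be shared (31 of 36, permutation adjusted p = 1.5e-05) and 14.4 points without the ribosomal DNA contigs (28 of 36, permutation adjusted p = 2.22e-05).

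Their fold over mock IP was lower. The median log2 fold averaged 1.80 on contigs and 2.09 on chromosomes, a difference of -0.29 ± 0.37 (SD, n = 36; lower in 32 of 36 ZFPs, permutation adjusted p = 2.86e-05). The exceptions were ZNF2 with a median fold of 4.72 on contigs and 4.38 on chromosomes, ZNF317 with 3.91 and 3.77, and the libraries labelled TRIM55 (4.85 and 1.998) and ZMAT5 (2.73 and 1.999). The joined values of TRIM55 and ZMAT5 rested on their replicate 2, which stood apart: TRIM55 had 3.76 and 3.27 in replicate 1 but 9.71 and 1.998 in replicate 2, and ZMAT5 had 4.40 and 3.23 in replicate 1 but 1.999 and 1.999 in replicate 2. Among peaks found in both replicates the mean difference was -0.15 (permutation adjusted p = 0.022). Contig peaks were wider, by a mean of 71.6 ± 80.3 bp in the median width (SD, n = 36; wider in 30 of 36, permutation adjusted p = 1.67e-05). Among peaks found in both replicates that difference was 39.5 bp and did not pass the test (permutation adjusted p = 0.13). It was 44.1 bp without the ribosomal DNA contigs and 124 bp with replicate 1 alone (permutation adjusted p = 1.25e-05 and 2.5e-05).

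**Figure D2:**
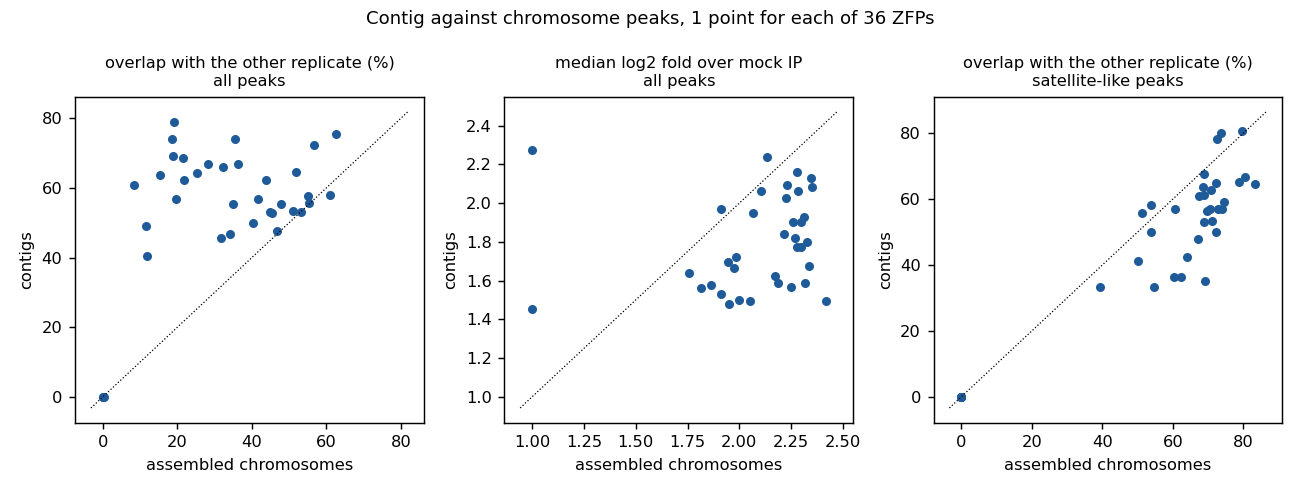
Values on contigs (vertical axes) against values on assembled chromosomes (horizontal axes), 1 point for each of 36 ZFPs with both lists joined, and the dotted line where both are equal. Overlap with the other replicate over all peaks (left, percent) lies above the line for 32 ZFPs, median log2 fold over mock IP (middle) below it for 32, and overlap of satellite-like peaks alone (right, percent) above it for 5.

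Among satellite-like peaks alone the order of overlap turned. On contigs 49.6% of them overlapped the other replicate and on chromosomes 59.6%, a difference of -9.93 ± 10.1 points (SD, n = 36; higher on contigs in 5 of 36, permutation adjusted p = 1.67e-05). With an overlap of at least 50% of both peaks it was -2.27 points and did not pass (permutation adjusted p = 0.13). Their fold was slightly higher on contigs, by 0.11 ± 0.14 on the log2 scale (SD, n = 36; 27 of 36, permutation adjusted p = 1.67e-05). That difference was 0.06 among peaks found in both replicates (permutation adjusted p = 0.092).

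Satellite-like peaks made up 30.7% of contig peaks and 24.9% of chromosome peaks when averaged over ZFPs. The difference of 5.88 ± 11.02 points passed the test (SD, n = 36; 28 of 36, permutation adjusted p = 0.0039), and its size and direction depended on which peaks were taken. Without the ribosomal DNA contigs, on which no peak was satellite-like, it was 21.6 points (34 of 36, permutation adjusted p = 1.25e-05). With a stricter q threshold of 0.001 it was -4.61 points (permutation adjusted p = 0.071). With only peaks found in both replicates it was -11.7 points and passed in the opposite direction (permutation adjusted p = 0.0003). With replicate 2 alone it was 1.39 points, and with the replicate block it was 3.23 points (permutation adjusted p = 0.54 and 0.095).

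A few contigs held most of the peaks. The 8 contigs with the most peaks took 3760 of the 4956 (75.9%), and 26 contigs had 5 peaks or fewer. By class, ribosomal DNA took 32.6% of contig peaks, pentamer satellite 29.6%, other contigs 22.7%, gene contigs 7.57% and the alpha-length class 7.53%. Per 100 kb of known sequence these came to 473 peaks on ribosomal DNA, 135 on pentamer satellite, 43.4 on other contigs, 21.6 on the alpha-length class and 7.18 on gene contigs. The plot of classes by ZFP shows that the mix differed: ribosomal DNA gave 1.09% to 77.2% of a ZFP's contig peaks, with 98 of 127 for CTCF and 1 of 92 for RBM5.

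**Figure D3:**
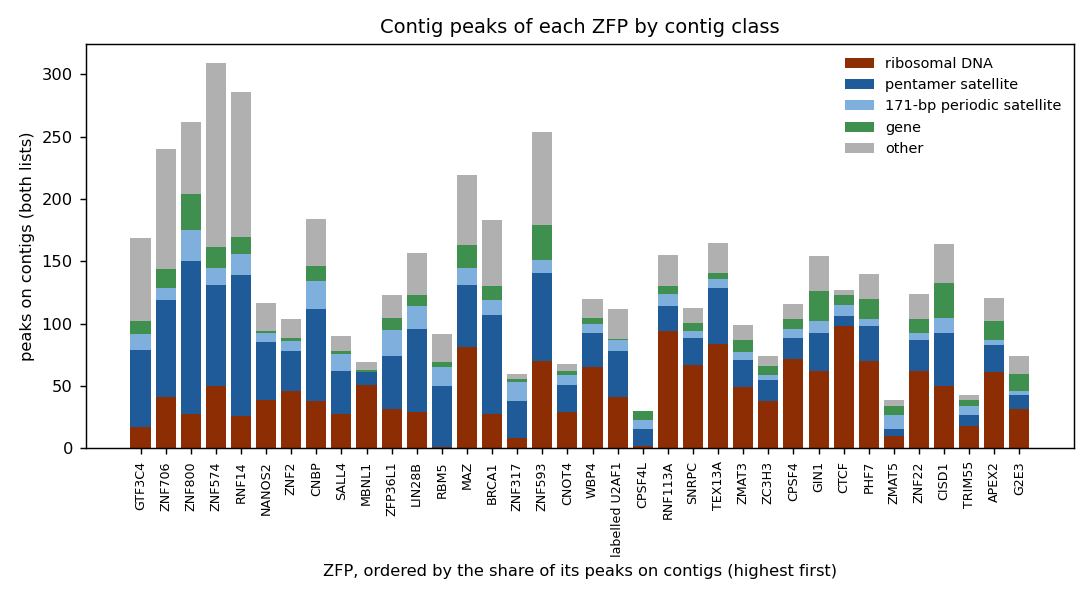
Number of contig peaks of each ZFP (vertical axis, both lists), stacked by contig class, with ZFPs ordered by the share of their peaks on contigs from the highest (left) to the lowest (right). ZNF574 has the most contig peaks (309), with 147 on other contigs, and CTCF has 98 of its 127 on ribosomal DNA.

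Pentamer satellite was led by chrUn_GL000216v2, with 737 peaks of all 36 ZFPs in 68 lists. Counts per ZFP ran from 4 to 53 with a median of 17, the highest being RNF14 (53), ZNF800 (50) and ZNF706 (43). Its peaks had a median fold of 3.01 (1.46 to 10.1) and a median width of 339 bp, and 69.5% overlapped the other replicate. Of them 71.6% were satellite-like. The region called for the most ZFPs of any contig lay here, at chrUn_GL000216v2:4427-6819: it was called for 36 of 36 ZFPs in 68 lists, with folds from 1.69 through a median of 2.57 to 4.11. Further regions of the contig were called for 33 ZFPs (chrUn_GL000216v2:10142-14945, median fold 3.45) and 32 ZFPs (chrUn_GL000216v2:15533-16842, median fold 3.85).

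The other pentamer contigs were less evenly shared among ZFPs. On chr17_KI270729v1_random, 320 peaks came from 35 ZFPs with a median fold of 2.72, an overlap of 62.8% and no peak of CTCF, and every one of them was satellite-like. On chr22_KI270736v1_random, 157 peaks came from 28 ZFPs with a median fold of 4.11, and 21.7% overlapped the other replicate. There 51.0% of the peaks came from 5 ZFPs, led by ZNF800 (22), RNF14 (20) and BRCA1 (15). ZNF800 is a zinc-finger repressor, RNF14 a RING ubiquitin ligase and BRCA1 the DNA repair ubiquitin ligase. On chrUn_KI270438v1, 26 ZFPs had 144 peaks with a median fold of 2.01.

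In the alpha-length class, chrUn_KI270442v1 had 150 peaks of 35 ZFPs with a median width of 472 bp. Of these 90.7% were satellite-like, so that they lay on pentamer arrays inside a contig whose windows mostly repeat at the alpha satellite distance. A single region, chrUn_KI270442v1:91802-93049, was called for 33 ZFPs in 56 lists with folds from 1.28 through a median of 1.64 to 4.54. The 42-bp repeat chrUn_KI270467v1, only 3920 bp long, had 63 peaks of 28 ZFPs. They covered 76.3% of its bases, none was satellite-like, and 79.4% overlapped the other replicate. On so short a contig peaks can overlap by position alone, so this percent does not measure reproducibility. Of the 98 contigs of this class 24 had any peak.

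Among the other contigs, chr14_GL000225v1_random had peaks spread unevenly over the ZFPs. It held 616 peaks of 35 ZFPs with a median fold of 3.26, and with a median of 167 bp they were narrower than on the satellites above. Of these 43.8% came from 5 ZFPs. ZNF574 had 38 and 28 peaks in its 2 lists, RNF14 35 and 31, ZNF706 26 and 31, and GTF3C4 24 and 21. At the other end CTCF and TRIM55 each had 2 and 0, and CPSF4L had none. On chrUn_GL000214v1, 163 peaks of 33 ZFPs had a median fold of 3.67. There 50.3% came from 5 ZFPs, with 27 from ZNF574, while 1 region (chrUn_GL000214v1:64331-65698) was called for 32 ZFPs with folds from 1.99 through 4.11 to 8.87.

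Ribosomal DNA lay on chrUn_GL000220v1 and chr22_KI270733v1_random, each with a complete 45S unit (RNA45SN5 at chrUn_GL000220v1:105424-118780 and RNA45SN4 at chr22_KI270733v1_random:122273-135645, RefSeq on hg38) and a second one cut off inside 28S by the contig's end. They held 788 peaks of 35 ZFPs and 829 peaks of 36 ZFPs. The median of the peaks had 100% of its 31-base words on assembled chromosomes too, so that reads here could be placed elsewhere as well. Of 72 lists 65 had peaks on both contigs, 2 on chr22_KI270733v1_random alone and 5 on neither (CPSF4L replicate 2, RBM5 replicate 1, TRIM55 replicate 1, ZC3H3 replicate 2 and the library labelled ZMAT5 replicate 1). Overlap with the other replicate was 69.2% and 66.95%, but 34.01% and 28.7% when at least 50% of both peaks had to be shared. The widest peak spanned 15150 bp. Merged over lists, the peaks of each unit formed a single region, called for 35 ZFPs at chr22_KI270733v1_random:166116-179772, for 34 at chr22_KI270733v1_random:120994-136840 and for 33 at chrUn_GL000220v1:148275-161802, with median folds of 3.69, 3.60 and 4.25. As these regions chain overlapping peaks, the ZFPs counted need not share a base.

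Summits were densest on the mature rRNAs. Per kb there were 164.5 summits on 5.8S, 31.03 on 18S and 29.97 on 28S, against 14.6 on the 5′ external spacer, 7.90 and 9.62 on the internal spacers, 0 on the 3′ external spacer (728 bp in all), 16 in the 1 kb before the 45S start and 5.19 on the intergenic spacer. Median folds were 10.4 on 5.8S (36 lists), 4.58 on 28S (59 lists) and 4.13 on 18S (55 lists). They were 3.05 to 3.30 on the transcribed spacers (19 to 41 lists), all pooled over lists whose depth is not known. In 31 of 35 lists that had summits on both, the median fold over the mature rRNAs was above that over the transcribed spacers. These are descriptions of the deposited lists, without a test.

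**Figure D4:**
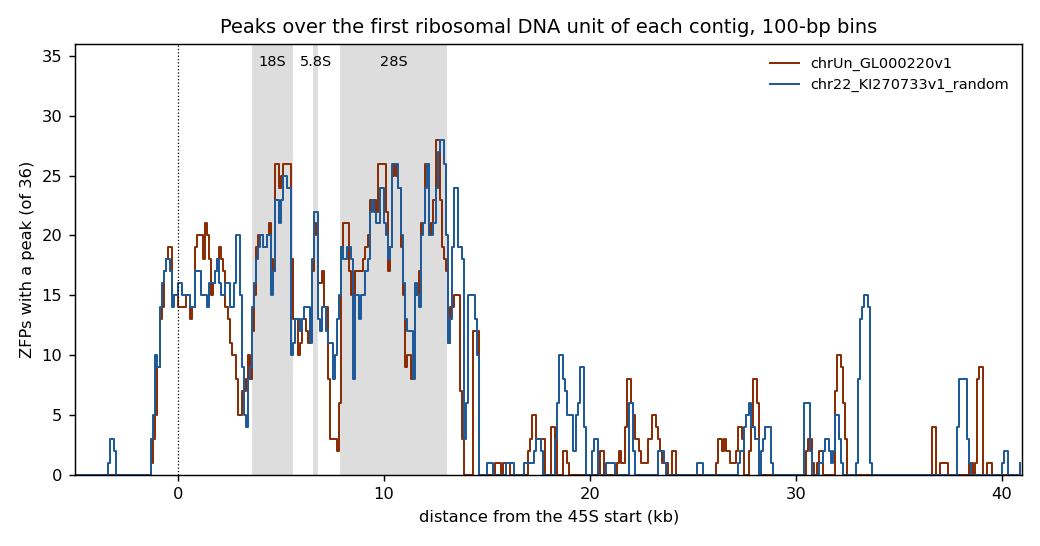
Number of ZFPs with a peak (vertical axis, of 36) in 100-bp bins by distance from the 45S start (horizontal axis, kb) on the first unit of each ribosomal DNA contig, with the mature rRNAs of chrUn_GL000220v1 in grey. Up to 28 ZFPs share a bin near the 3′ end of 28S on each contig, and past 15 kb no bin is shared by more than 15.

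The highest folds came from libraries that stood apart. The library labelled TRIM55 replicate 2 reached 239.5 and 222.3 at the 3′ end of 28S in the complete units. It reached 227.2 and 228.4 in the cut-off 28S of the second units, while replicate 1 had no peak on ribosomal DNA. The library labelled MBNL1 replicate 1, of a protein known as a splicing regulator, reached 98.2 on 28S and 80.8 to 90.7 on 5.8S, with a median of 47.5 over the mature rRNAs. MBNL1 replicate 2 had 30 peaks there and none above 5.81. Both high libraries lacked peaks on the exons of their own gene and were among the 4 lists with the lowest folds at EEF1A1 (6.98 and 53.33), whose part in these values was not tested. Without these 4 lists the highest values were 43.67 on 28S (CISD1 replicate 1), 32.2 on 5.8S (G2E3 replicate 1) and 30.1 on 18S (CISD1 replicate 2), and the medians were 10.4, 4.48 and 4.12 on 5.8S, 28S and 18S.

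Some peaks on 18S and 5.8S had the outline of the mature rRNA, and none did on the complete copies of 28S. Summits numbered 232 on 18S, 103 on 5.8S and 573 on 28S in all. In 34 peaks of 16 lists, most of them on 5.8S, both edges lay within 20 bp of the ends of a single 18S or 5.8S RNA. The library labelled MBNL1 replicate 1 had 7 of them. Its 18S peak on chr22_KI270733v1_random began on the first base of the RNA and ended 15 bp before its last. ZNF2 replicate 1 had 4, all on 5.8S, with folds of 10.7 to 13.9, and NANOS2, a germ-cell RNA-binding protein, had 4 in replicate 1 with folds of 4.01 to 5.22. SNRPC replicate 2 had 3, with folds of 15.2, 13.9 and 5.90. The printed 5.8S window shows the outline: 7 bp before and 16 bp after the RNA.

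Other lists covered the unit as a whole or left the mature RNAs out. In CISD1 replicate 1, of an iron-sulfur protein of the mitochondrial outer membrane, peaks covered 100% of the complete units, and in G2E3 96.98% and 98.9% (replicates 1 and 2). The median list covered 17.1%. BRCA1 had 16 and 12 ribosomal DNA peaks with no summit on a mature rRNA, ZNF574 had 24 and 26 and RNF14 had 10 and 16, also without any. RNF113A, a spliceosome component, had 48 and 46, of which 52.1% and 15.2% lay on mature rRNA. CTCF had 44 and 54, of which 47.7% and 55.6% did. The libraries labelled U2AF1 had 17 and 24, of which 11.8% and 25% did.

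Beside these, the intergenic spacer had 313 summits of 26 ZFPs with a median fold of 2.88, among them a region at chr22_KI270733v1_random:155180-155899 called for 17 ZFPs. The sequence before the first unit had 40 summits of 14 ZFPs with a median fold of 5.87. Most of them lay next to the start of a copy of the long noncoding RNA gene ENSG00000279064: 19 peaks of 11 ZFPs within 1 kb of it on chr22_KI270733v1_random (median fold 7.005) and 16 of 10 ZFPs on chrUn_GL000220v1 (5.58).

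Gene contigs held few peaks, of which 18.7% were satellite-like, among them all 67 on chr1_KI270709v1_random. In front were 3 regions. The strongest lay on a copy of U1 snRNA, the RNA that pairs with the 5′ splice site. The 164 bases of RNU1-1 stood without a mismatch on the minus strand at chr1_KI270713v1_random:21861-22024, where 19 lists of 13 ZFPs had a peak. Folds ran from 7.15 (APEX2 replicate 2) through a median of 20.4 to 35.85 (GIN1 replicate 1). CISD1 had 30.55 and 20.25, ZMAT3 24.45 and 30.86, GIN1 35.85 and 14.11, APEX2 24.52 and 7.15, G2E3 20.36 and 11.07, and SNRPC, itself a U1 protein, 10.06 and 15.78. The other ZFPs (CPSF4, MAZ, MBNL1, PHF7, RNF113A, WBP4 and ZNF2) had it in replicate 1 alone.

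The edges of these peaks met those of the RNA. Of the 19 peaks 13 began within 2 bp of the 3′ end of U1, and of these 10 ended within 2 bp of a point 11 bp before its 5′ end. The peak of 175 bp printed above was the most common. The same 164 bases stand in 8 genes on chromosomes 1 and 14, which had peaks in 18 to 29 lists each with median folds of 18.1 to 29.3. Every one of the 19 lists also had a peak on at least 1 of these 8, and 20 further lists had a peak there without one on the contig. Reads of these 9 identical copies cannot be told apart beyond their flanks.

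**Figure D5:**
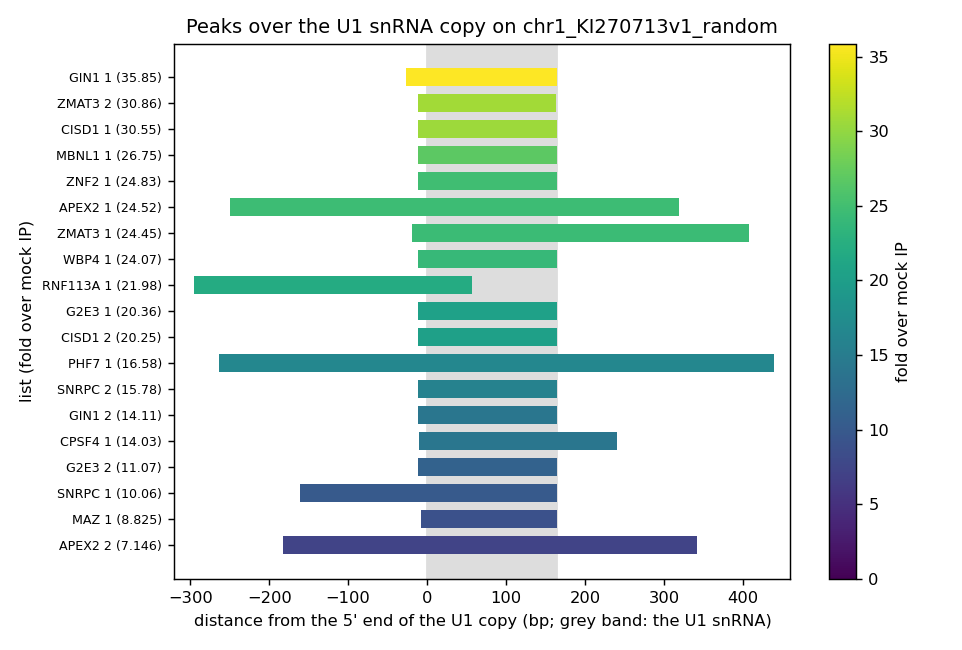
Peaks over the U1 snRNA copy of chr1_KI270713v1_random, 1 bar for each of 19 lists ordered by fold over mock IP (colour, and in brackets beside the ZFP and replicate), by distance from the 5′ end of U1 (horizontal axis, bp); the grey band is the 164-bp RNA. Of the 19 bars 13 end with the RNA on the right, and 10 of these begin about 11 bp before it on the left.

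The other leading regions of gene contigs lay at chr17_GL000205v2_random:86553-90029, called for 27 ZFPs in 46 lists (median fold 5.65, highest 11.5), and at chrUn_GL000195v1:30715-32864, called for 14 ZFPs in 21 lists (median fold 4.78). The second took in the start of a copy of the noncoding gene ENSG00000288187. Of the protein-coding copies on contigs, only DGCR6 with its near-identical relatives DGCR6L and ENSG00000283809, which match the same stretch of chr22_KI270734v1_random, had peaks of at least 2 ZFPs within 1 kb of the start: APEX2 replicate 1 (fold 4.80) and GIN1 replicate 1 (fold 4.91), neither found in the other replicate. DGCR6 lies in the region lost in DiGeorge syndrome.

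Classes were set per contig, so gene contigs and the class of others also held satellite-like peaks (18.7% and 4.63% of their peaks). Satellite contigs were set against all other contigs, these included, within each ZFP. Their fold was lower by 0.38 ± 0.42 on the log2 scale, from 1.95 to 1.57 (SD, n = 36; lower in 31 of 36, permutation adjusted p = 1.67e-05), a difference that was -0.23 without the ribosomal DNA contigs (permutation adjusted p = 9e-05). Overlap with the other replicate was 51.5% on satellite contigs and 53.4% on the others, a difference of -1.87 ± 20.2 points (SD, n = 36; higher in 17 of 36, permutation adjusted p = 0.58). Without the ribosomal DNA contigs this difference was 11.4 points (permutation adjusted p = 1.25e-05), and with an overlap of at least 50% of both peaks it was 13.8 points (permutation adjusted p = 1.5e-05). The median width was 347 bp on satellite contigs and 320 bp on the others, a difference of 27.4 ± 126 bp (SD, n = 36; permutation adjusted p = 0.23). Without ribosomal DNA it was 101 bp (permutation adjusted p = 1.25e-05), and with chr14_GL000225v1_random counted as satellite it was -60.5 bp (permutation adjusted p = 0.025).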

How the data were processed

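Peak lists of 72 libraries were used as deposited. Per the labels and the study's methods, the authors trimmed reads (Trimmomatic 0.36), aligned them to hg38 (Bowtie2 2.3.5.1), removed duplicates (Picard 0.1.8) and called narrow peaks for each library against mock IP (MACS2 2.2.7.1, FDR 0.05). The sources used here do not give how reads with several equally good places were treated. The deposited columns used were position, summit offset, fold (a ratio to the mock IP at the summit) and the −log10 q-value. The deposited −log10 p-value and the score were not used. Folds depend on the depth of each library and of its mock IP, so the tests compared them within ZFPs. As the 2 lists of a ZFP were joined, a difference in depth between them can still enter. Only the replicate block compared within each list. Folds of different lists named side by side, and medians pooled over lists, stand as deposited and were not corrected for depth.

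Contig classes were set from the sequence: ribosomal DNA where RefSeq rRNA genes matched, at least 10% of bases in ATTCC or GGAAT, at least 50% of unit-length windows matching 160 to 182 bp downstream at 50% of bases, then copies of GENCODE 44 genes (at least 50% of the 31-base words of the longest transcript), since GENCODE 44 as used here annotates no contig. This replaces the planned use of annotated genes. Named contigs were the 8 with the most peaks, named regions the 5 called for the most ZFPs and 3 each on ribosomal DNA and gene contigs, and named ZFPs the 3 highest and lowest shares with CTCF, RNF113A and U2AF1; other ZFPs, contigs and regions were named after their values were seen. Classes, members and lists were chosen with earlier results of these data known.

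Both lists of a ZFP were joined, with at least 3 peaks of each kind (0.5 added to counts for densities), and per-ZFP differences were tested by two-sided sign flips (100000 resamples, Benjamini-Hochberg over 10, threshold 0.05). Peaks on mitochondrial DNA were left out of tests and correlations. Intervals of shares are exact (Clopper-Pearson, 95%), the limit of a count of 0 is 3 counts, and both cover counting error only. Overlap, tests and classes were tested on simulated data. Tools were Python 3.11.15, NumPy 2.4.6, pandas 2.3.3, SciPy 1.17.1 and bedtools 2.31.1.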

Additional observations from a re-analysis of the deposited data

How the results depend on the processing

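Of 150 recomputed values 129 kept their direction and their side of the 0.05 threshold (sign-flip or correlation permutation tests). The density, overlap and fold of contig against chromosome peaks and the fold of satellite against other contigs did so under every alternative run, with ranges of 3.84 to 5.54 (log2), 12.5 to 25.3 points, -0.43 to -0.15 and -0.52 to -0.23 (log2). Some alternatives were added after seeing the data: leaving out the libraries labelled U2AF1, MBNL1 with TRIM55, TRIM55 with ZC3H3 and ZMAT5, or ribosomal DNA, and counting chr14_GL000225v1_random as satellite.

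With 1 replicate left out in turn, the satellite-like share ran from 1.39 to 5.39 points, and for satellite against other contigs overlap ran from -6.59 to 7.77 points (the latter, without replicate 2, past the threshold at an adjusted p of 0.049) and width from -11.8 to 9.54 bp. With the replicate block (differences within each list, averaged over the paired lists), the satellite-like share was 3.23 points (no longer past the threshold), and satellite against other contigs gave 1.08 points for overlap and -0.15 bp for width (signs turned, neither passed). The block changed no other call. A q threshold of 0.001 turned the satellite-like share to -4.61 points. The 30 ZFPs with an entry for Cut&Run target genes in the study's summary table gave 1.78 points for satellite overlap.

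With only peaks found in both replicates, the satellite-like share was -11.7 points, the width differences 39.5 bp (contigs) and -5.88 bp (satellites), the satellite-like fold 0.061 (log2), and the correlations -0.091 with list length and 0.35 with the satellite share. A 50% overlap gave 13.8 points for satellite against other contigs and -2.27 points for satellite-like peaks. Satellite contigs at 30% of bases gave -12.7 points (now past the threshold) and -12.8 bp. Without ribosomal DNA these were 11.4 points and 101 bp, and with chr14_GL000225v1_random as satellite the width was -60.5 bp. The cause of these shifts was not tested. Depth per library is unknown, so a missing peak was not read as absence.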
